A study of Mus musculus with 6 samples.

Results

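The genes described here are Podxl and 5 further genes known from podocytes, namely Nphs1, Synpo, Magi2, Ptpro and Cd2ap. They were chosen by name from earlier results on these arrays, in which the difference between genotypes had been seen, so their values are a description, no p is given for them, and nothing is read from whether a fit across all genes called them. A probe set was taken when the platform annotation gave it exactly 1 symbol and that symbol was one of the 6, which gave 10 probe sets of 45101 and 5 of the 18194 genes tested. Magi2 is not among the symbols that the annotation used here lists, and it was not analysed here.

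Mouse embryos at E11.5 were dissected, and EGFP-positive cells of their intermediate mesoderm were collected by fluorescence-activated sorting. The cells were Pax2 null (3 arrays, titled EGFP/EGFP) or Pax2 heterozygote (3 arrays, titled EGFP/+), so by the titles every sample carried EGFP and there was no wild type. By the same titles the dose of EGFP, on which the cells were sorted, differed between the genotypes. EGFP dose and Pax2 genotype cannot be told apart here. The labels do not name the strain, what drives EGFP or whether embryos were pooled, and nothing in them ties the arrays to separate litters. The p-values therefore only set each difference against the spread among these arrays within a genotype, and that spread may be technical. The comparison asks which RNAs depend on Pax2, a transcription factor of the developing kidney. The Pax2 transcript was not analysed here, and the genotypes rest on the labels. The array medians lay between 6.12 and 6.24 (log2).

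Podocytes are the epithelial cells that wrap the capillaries of the glomerulus, the filter of the kidney. Their interdigitating foot processes are joined by the slit diaphragm, in which nephrin is a main component, and are held in shape by an actin cytoskeleton. At the stage sampled here the ureteric bud has only begun to enter the metanephric mesenchyme, and mature glomeruli of the permanent kidney form later. Several podocyte genes also serve in other cells: Podxl in blood vessels, blood progenitors and the coelomic lining, Synpo and Ptpro in neurons, and Cd2ap in many cell types.

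Podxl and Synpo were higher in Pax2 null cells, while Nphs1 and Ptpro read low in every array of both genotypes. Cd2ap read high in both genotypes, with a lower mean in null. Podxl was 3.31-fold higher in null by its brighter probe set and Synpo 3.76-fold higher. The label of podocyte genes is thus only partly borne out by the arrays: of the 10 probe sets, 4 had means under 4.81, which is where the dimmest 33% of probe sets end, namely those of Nphs1 and Ptpro and the dimmer one of Synpo. These 4 ranged from 3.42 to 4.77 over all arrays (log2). A low value on these arrays does not show that an RNA is absent, and values set beside each other here are always those of 1 probe set.

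Podxl encodes podocalyxin, a heavily sialylated transmembrane mucin of the CD34 family that coats foot processes with negative charge. Its brighter probe set (1448688_at) read 9.41, 9.53 and 10.05 in null 1, 2 and 3, against 8.45, 7.75 and 7.61 in heterozygote 1, 2 and 3 (log2). All null arrays lay above all heterozygote arrays, with 0.96 between the lowest null and the highest heterozygote value. The means were 9.66 ± 0.34 in null and 7.94 ± 0.45 in heterozygote (log2, SD, n = 3 each), a difference of 1.72 ± 0.27 (SE).

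The second Podxl probe set (1417396_at) read 8.16, 8.47 and 7.67 in null 1, 2 and 3, against 5.95, 5.66 and 6.40 in heterozygote 1, 2 and 3 (log2). The genotypes were again apart, by 1.27, and the difference was 2.10 ± 0.27 (log2, SE), or 4.28-fold. Both probe sets had the same direction, but they ordered the arrays of a genotype differently. Null 3 was the highest null array by the first and the lowest by the second, and heterozygote 1 and 3 changed places at the top of their genotype.

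Nphs1 encodes nephrin, the adhesion protein of the slit diaphragm. Its single probe set read 4.52, 4.16 and 3.68 in null 1, 2 and 3, against 3.98, 4.29 and 4.21 in heterozygote 1, 2 and 3 (log2). The null arrays held both the highest and the lowest of the 6 values. The difference was -0.04 ± 0.23 (SE), and differences between such dim values are compressed.

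Synpo encodes synaptopodin, an actin-associated protein of foot processes and of dendritic spines. Its brighter probe set (1434089_at) read 9.24, 8.33 and 8.92 in null 1, 2 and 3, against 7.78, 6.46 and 6.51 in heterozygote 1, 2 and 3 (log2). The genotypes did not overlap, although heterozygote 1 stood well above its 2 companions and came within 0.55 of the lowest null array. The means were 8.83 ± 0.46 in null and 6.91 ± 0.75 in heterozygote (log2, SD, n = 3 each), a difference of 1.91 ± 0.39 (SE).

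The other Synpo probe set (1427045_at) read 4.74, 4.77 and 4.46 in null 1, 2 and 3, against 4.45, 4.33 and 4.56 in heterozygote 1, 2 and 3 (log2). Here the genotypes overlapped, and the difference was 0.21 ± 0.17 (SE). The Synpo difference thus rests on the brighter probe set, and with the mean of both it was 1.06.

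Ptpro encodes a receptor-type tyrosine phosphatase of the apical podocyte surface, also called GLEPP1. Its higher probe set (1425863_a_at) read 3.67, 4.06 and 3.71 in null 1, 2 and 3, against 3.73, 3.94 and 3.57 in heterozygote 1, 2 and 3 (log2), a difference of 0.07 ± 0.19 (SE). The other (1417676_a_at) had means of 3.68 ± 0.15 in null and 3.69 ± 0.33 in heterozygote (SD, n = 3 each). The genotypes overlapped by both probe sets.

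Cd2ap encodes the adaptor that links nephrin to the actin cytoskeleton. Its probe set with the highest mean (1420906_at) read 10.86, 10.74 and 9.93 in null 1, 2 and 3, against 10.03, 11.19 and 11.14 in heterozygote 1, 2 and 3 (log2). Null 3 and heterozygote 1 were both about 1 unit below their companions, the genotypes overlapped, and the difference was -0.27 ± 0.37 (SE). The 2 other probe sets differed by -0.52 ± 0.18 and -0.56 ± 0.24 (SE). Only by the first of these, 1420907_at, did the null arrays (9.25 to 9.58) lie below the heterozygote arrays (9.68 to 10.06), by 0.10.

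**Figure D1:**
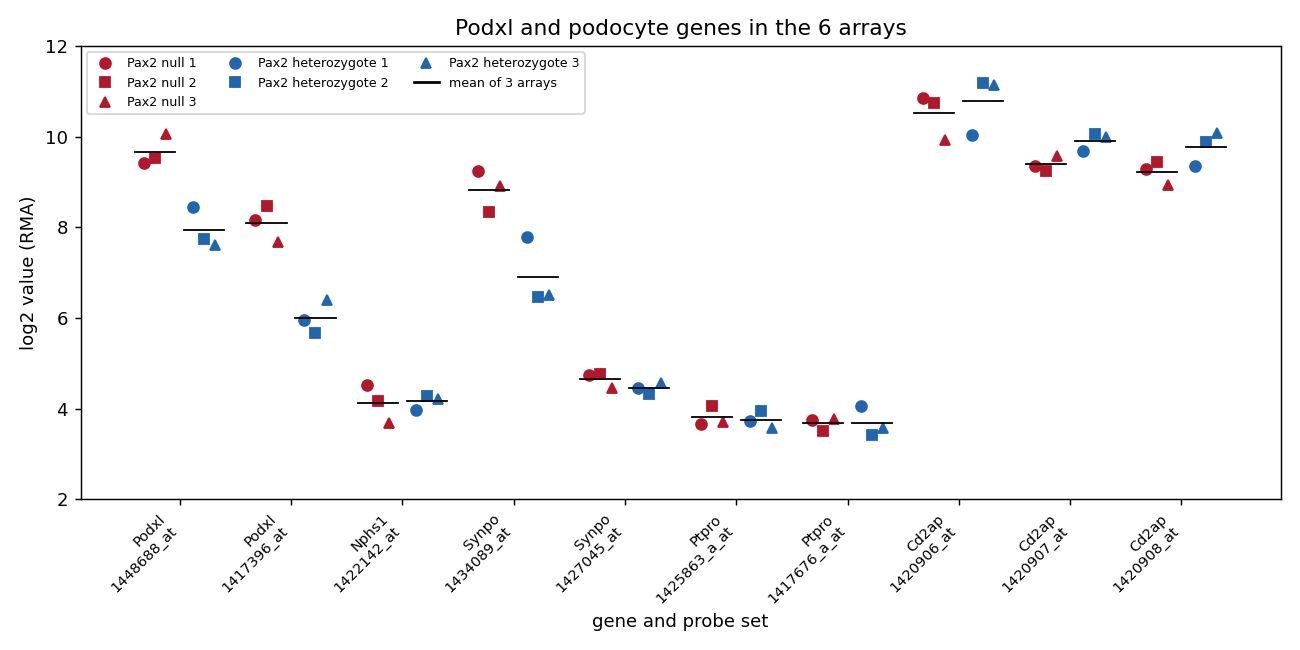
Log2 values (vertical axis) of the 10 member probe sets (horizontal axis) in the 3 Pax2 null arrays (red, left) and the 3 Pax2 heterozygote arrays (blue, right), with marker shapes for the replicate number and black lines for means. Both Podxl probe sets and the brighter Synpo probe set have all null points above all heterozygote points, the Nphs1 and Ptpro points lie between 3.42 and 4.52 in both genotypes, and 2 of the 3 Cd2ap probe sets overlap.

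In the fit across all genes, each gene stood for its probe set with the highest mean, and a gene was called at a Benjamini-Hochberg adjusted p under 0.05 (limma). Of the 5 measured members, only Podxl was called, in the higher direction, where 0.808% of all genes were called higher in null and 0.583% lower. Among all genes, 6.49% had every null array above every heterozygote array and 7.16% had every null array below. Of the members, Podxl and Synpo did so upwards and none downwards. Since the members were picked with this comparison in view, nothing is read from these counts. Podxl was no longer called when null 1, null 2, null 3, heterozygote 2 or heterozygote 3 was left out, with differences of 1.53 to 1.98 over the 6 such fits. Synpo was called in 5 of 14 alternative fits. These were the fits with an intensity-dependent prior, with dim genes left out, with array weights, without heterozygote 1 and with the array pair as a block. Nothing is read from these calls of Podxl and Synpo either. In these sorted populations, fewer cells of a type and less RNA per cell cannot be told apart.

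The labels give no batch, but the arrays' bacterial hybridization controls fell into 3 pairs, each of 1 null and 1 heterozygote array. Within the pairs, the Podxl difference was 1.66 (null 1 and heterozygote 2), 1.91 (null 2 and heterozygote 3) and 1.60 (null 3 and heterozygote 1) by the brighter probe set, and 2.50, 2.07 and 1.72 by the other. For Synpo it was 2.78, 1.82 and 1.14 in the same order. All of these were positive. For Cd2ap the 3 probe sets gave -0.75 to -0.09, all negative, whereas those of Nphs1 and Ptpro had both signs.

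Sema3a rose and Npnt and Bmp7 fell among the other podocyte genes, whose median change was near that of all genes. The 5 lists of other podocyte genes held 68 measured genes, of which 1 rose, 2 fell and 65 did not pass. That is 4.41% called in either direction, where 1.39% of all genes were. Their median change was 0.02, against -0.02 over all genes tested. The count that fell was 0 without null 1, null 2, heterozygote 2 or heterozygote 3 and 1 without heterozygote 1. At an unadjusted p under 0.05 there were 15 in both directions together, or 22.1%, where 9.73% of all genes were. With the array pair as a block, 4 of these genes rose and 3 fell, where 2.65% and 1.88% of all genes did, which added Kirrel3, Tyro3 and Thsd7a above and Enpep below.

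Transcription factors that act in podocytes were present without a called change, 0 of 11 passing in limma, with a median change of -0.09. At an unadjusted p under 0.05 there were 2 (18.2%, against 9.73% of all genes). Wt1, needed for podocyte identity and already used in the early kidney mesenchyme, read 9.73, 9.57 and 9.84 in null 1, 2 and 3, against 9.78, 9.76 and 9.87 in heterozygote 1, 2 and 3 (log2). Its difference was -0.09 ± 0.15 (SE; limma, adjusted p = 0.985). Tcf21 (0.20 ± 0.27), a factor of kidney mesenchyme and podocytes, and Foxc2 (-0.03 ± 0.16) also had overlapping arrays. The differences with the smallest p were those of Klf15 (-0.37 ± 0.15), Pou3f3 (-0.63 ± 0.27) and Lmx1b (-0.43 ± 0.22), which regulates podocyte matrix genes, with limma adjusted p of 0.476, 0.489 and 0.616.

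Genes of the slit diaphragm and its adaptors had 0 of 16 called in limma, and a median of 0.02. At an unadjusted p under 0.05 there were 2 (12.5%, against 9.73% of all genes). Kirrel, which encodes the nephrin partner Neph1, read 8.37, 8.58 and 8.80 in null 1, 2 and 3, against 8.65, 8.01 and 8.43 in heterozygote 1, 2 and 3 (log2), with overlapping genotypes (0.22 ± 0.21, SE; limma, adjusted p = 0.929). The receptor tyrosine kinase gene Tyro3 (0.97 ± 0.23) and Kirrel3 (0.90 ± 0.25), a further Neph protein, had all null arrays above all heterozygote arrays. Neither passed (limma, adjusted p = 0.119 and 0.180), whereas both passed when the array pair was a block (0.0471 and 0.0166). Nck1, an adaptor of phosphorylated nephrin, was next by p (-0.21 ± 0.18).

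Foot process cytoskeleton genes had 0 of 15 called in limma, and a median of 0.02. At an unadjusted p under 0.05 there were 3 (20%, against 9.73% of all genes). Pdlim2 (0.96 ± 0.28) and Plekhh2 (0.52 ± 0.18) had the smallest p, followed by the motor gene Myo1e (-0.34 ± 0.14), and limma's adjusted p was 0.224, 0.350 and 0.485. Only 1 of the 3 Plekhh2 probe sets and 2 of the 4 Myo1e probe sets had the sign given here.

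Among 15 genes of podocyte adhesion and basement membrane, 1 fell and 0 rose, with a median of 0.14. That is 6.67% called in limma, and 3 (20%) were at an unadjusted p under 0.05, against 1.39% and 9.73% of all genes. The gene that fell was Npnt, which encodes nephronectin, a basement membrane ligand of integrin alpha8. It read 9.80, 9.63 and 9.73 in null 1, 2 and 3, against 10.99, 10.73 and 10.78 in heterozygote 1, 2 and 3 (log2), a fall by 1.12 that passed (SE 0.15; limma, adjusted p = 0.0159). The genotypes were well apart and the arrays of each lay close together. The call was lost without null 1, null 2, heterozygote 2 or heterozygote 3 (limma, adjusted p up to 0.0730).

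The podocyte signals list had 11 measured genes, of which 1 rose and 1 fell. That is 18.2% called in limma, and 5 (45.5%) were at an unadjusted p under 0.05, against 1.39% and 9.73% of all genes. Sema3a, a secreted guidance cue made by podocytes and by many embryonic tissues, read 10.04, 10.03 and 9.53 in null 1, 2 and 3, against 7.36, 7.70 and 7.38 in heterozygote 1, 2 and 3 (log2). It rose by 2.38 ± 0.20 (SE; limma, adjusted p = 0.00332), all 3 of its probe sets were positive, and it passed in every alternative fit. Bmp7, a growth factor of nephron progenitors, fell by 1.31 (SE 0.22; limma, adjusted p = 0.0341), a call lost when any array but null 3 was left out (adjusted p up to 0.137) and with the mean over its probe sets (0.0670).

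**Figure D2:**
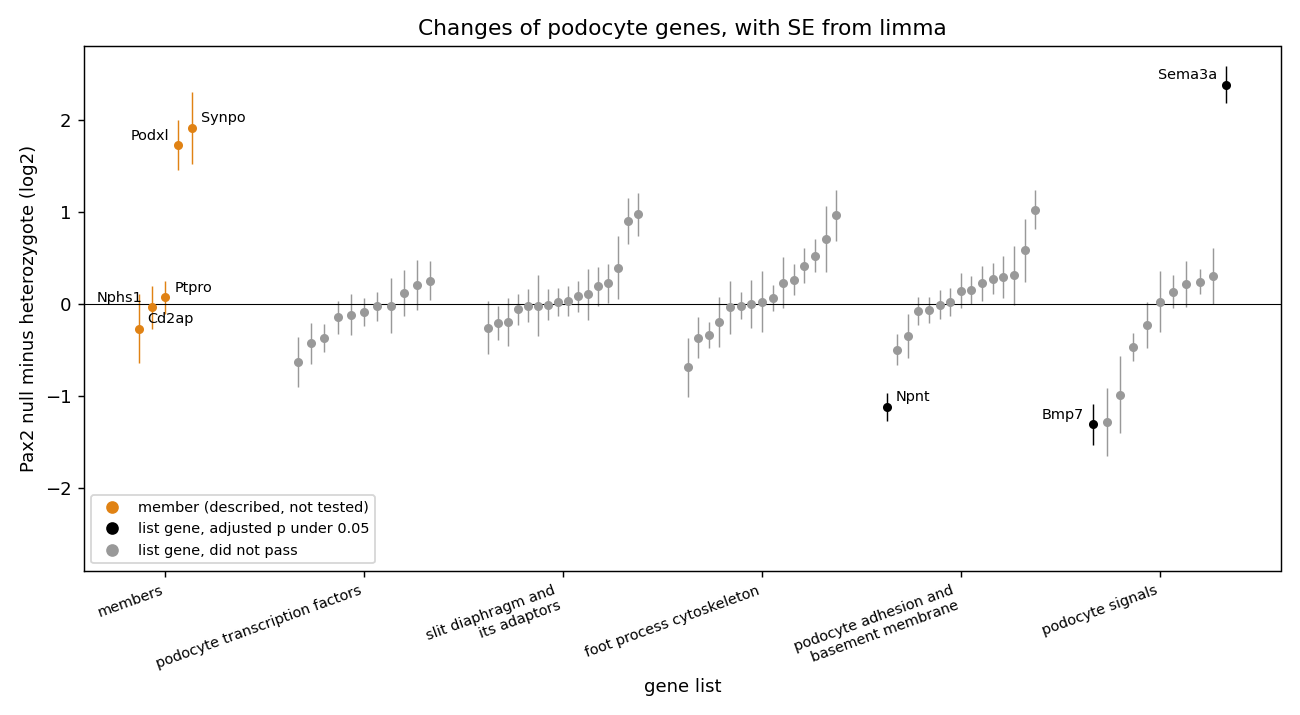
Difference of each gene, Pax2 null minus heterozygote (vertical axis, log2, with SE), for the 5 measured members (orange) and the 5 podocyte lists (horizontal axis), with list genes past an adjusted p of 0.05 in black and the others in grey. Podxl and Synpo stand at 1.72 and 1.91, and of the 68 list genes only Sema3a, Npnt and Bmp7 are marked as passing.

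The family and partners of podocalyxin were examined next. Its closest relatives are Cd34, a surface mucin of blood progenitors and vessels, and Podxl2, which encodes endoglycan. Cd34 read 5.65, 6.13 and 5.33 in null 1, 2 and 3, against 5.30, 4.24 and 5.07 in heterozygote 1, 2 and 3 (log2). Podxl2 read 7.61, 8.40 and 7.65 in null 1, 2 and 3, against 7.53, 7.39 and 7.57 in heterozygote 1, 2 and 3 (log2). The arrays of both genes did not overlap between genotypes, but the gaps were narrow, and the differences of 0.83 ± 0.32 and 0.39 ± 0.23 (SE) did not pass (limma, adjusted p = 0.409 and 0.743).

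Podocalyxin is tied to actin through ezrin and the PDZ adaptors NHERF1 and NHERF2, the products of Ezr, Slc9a3r1 and Slc9a3r2. Slc9a3r2 read 9.04, 8.93 and 8.48 in null 1, 2 and 3, against 7.85, 8.03 and 7.97 in heterozygote 1, 2 and 3 (log2). Ezr read 8.32, 8.83 and 8.88 in null 1, 2 and 3, against 9.86, 9.37 and 9.39 in heterozygote 1, 2 and 3 (log2). The null arrays were thus all higher for the first and all lower for the second. The differences were 0.87 ± 0.19 for Slc9a3r2 and -0.86 ± 0.22 for Ezr (SE), neither of which passed (limma, adjusted p = 0.0858 and 0.139), while both did with the array pair as a block (0.0243 and 0.0319). Slc9a3r1 overlapped (0.26 ± 0.34). In all, limma called 0 of 11 genes of this list, 3 at an unadjusted p under 0.05 and 2 with the block (27.3% and 18.2%, against 9.73% and 4.53% of all genes), with a median of 0.17.

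A list of relatives of the members repeats Cd34, Podxl2, Kirrel and Kirrel3, which were counted in the lists above. It had 0 of 11 genes called in limma, with a median of 0.22. At an unadjusted p under 0.05 there were 4, and 2 with the block (36.4% and 18.2%, against 9.73% and 4.53% of all genes). Kirrel3 is among both counts. After Kirrel3, the smallest p were those of Magi3 and Cd34. Magi3, of the same scaffold family as Magi2, read 9.89, 10.17 and 10.47 in null 1, 2 and 3, against 10.75, 10.59 and 10.83 in heterozygote 1, 2 and 3 (log2), and did not pass (-0.55 ± 0.19, SE; limma, adjusted p = 0.325). Synpo2, a relative of Synpo, read 6.02, 5.76 and 6.81 in null 1, 2 and 3, against 5.83, 5.39 and 5.01 in heterozygote 1, 2 and 3 (log2). Its difference of 0.79 ± 0.31 did not pass (limma, adjusted p = 0.443) except when the array pair was a block (0.0283), and its arrays overlapped.

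Some nephron and duct genes of the same cells fell. In the list of early nephron and mesonephric tubule genes, 4 of 14 fell and 1 rose, with a median of -0.79. That is 35.7% called in limma, and 12 (85.7%) were at an unadjusted p under 0.05, against 1.39% and 9.73% of all genes. Lhx1 (-2.50 ± 0.22), Irx1 (-1.47 ± 0.17), Irx3 (-1.42 ± 0.24) and the endocytic receptor gene Lrp2 (-1.83 ± 0.28) fell and the cadherin gene Cdh6 (1.61 ± 0.20) rose. Of 12 duct genes 4 fell and 0 rose, namely Calb1, Mal, Ret and Gata3, with a median of -0.36. Of the 8 that did not pass, Epcam (-0.06 ± 0.16), Krt8 (-0.05 ± 0.25), Krt18 (-0.05 ± 0.25) and Cldn4 (0.02 ± 0.43) overlapped between genotypes. So did Cdh1 (-0.29 ± 0.30), Wnt9b (-0.18 ± 0.26) and Wnt11 (-0.55 ± 0.27), while Emx2 (-0.43 ± 0.17) was lower in every null array. Here 33.3% were called, and 5 (41.7%) were at an unadjusted p under 0.05 in limma, against 1.39% and 9.73% of all genes. Emx2 was in both lists. The calls of Lhx1, Irx1, Calb1 and Mal held in all 6 fits with 1 array left out. Irx3 kept its call only without null 1, Lrp2 only without null 2 or heterozygote 1, and Gata3 only without null 3 or heterozygote 1. Ret lost it without null 1, heterozygote 2 or heterozygote 3, and Cdh6 without heterozygote 2 or heterozygote 3.

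Because Podxl is not particular to podocytes, markers of its other cell types were set beside it. No endothelial marker was called higher: of 16 measured genes 0 rose and 1 fell in limma (6.25% called), and the median was -0.07. At an unadjusted p under 0.05 there were 3 in both directions together (18.8%), namely Ramp2, Erg and Eng. Erg (-0.88 ± 0.23, SE) was lower in every null array and Eng (0.40 ± 0.15) higher in every null array. With the array pair as a block 2 were called, Ramp2 and Erg, both lower in null (12.5%, against 4.53% of all genes). Of all genes, 1.39% were called and 9.73% were at an unadjusted p under 0.05. The mean level of the endothelial markers per array was 5.29 to 5.62 in null and 5.43 to 5.81 in heterozygote (log2). Of the 16, 7 were below 4.81, among them Pecam1, Tie1, Tek and Sox17. The other 9 were brighter, such as Kdr (means of 7.48 in null and 7.11 in heterozygote), Egfl7 (7.48 and 7.58) and Emcn (6.19 and 5.98). The gene that fell was Ramp2, a receptor-modifying protein gene also used outside vessels (-1.56 ± 0.28, SE; limma, adjusted p = 0.0391). Its call held only without null 2 among the fits with 1 array left out (adjusted p up to 0.156).

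Of 15 blood and macrophage markers 0 were called in limma, 3 at an unadjusted p under 0.05 and 2 with the block (20% and 13.3%, against 9.73% and 4.53% of all genes), and 12 differences were positive, with a median of 0.53. Laptm5 (1.28 ± 0.33), Tyrobp (1.49 ± 0.39) and Cd68 (0.64 ± 0.21) had the smallest p (limma, adjusted p = 0.141, 0.154 and 0.312), and the mean level was 6.08 to 6.86 in null and 5.58 to 6.28 in heterozygote. Of the 15, 5 were below 4.81, among them the leukocyte gene Ptprc and the erythroid gene Gata1 (3.39 to 4.12 over all arrays). Others were bright, such as the embryonic globin gene Hbb-bh1 (9.03 to 10.15 in null and 7.67 to 10.33 in heterozygote) and the macrophage receptor gene Csf1r (7.72 to 9.92 in null and 6.57 to 8.51 in heterozygote). Of 12 genes of the coelomic lining 0 were called in limma, 6 at an unadjusted p under 0.05 and 3 with the block (50% and 25%, against 9.73% and 4.53% of all genes), with a median of -0.03 and mean levels of 6.56 to 6.71 in null and 6.17 to 6.69 in heterozygote. Krt19 (1.21 ± 0.25), Bnc1 (1.59 ± 0.41) and Gata4 (1.45 ± 0.43) were higher in every null array but did not pass (limma, adjusted p = 0.0729, 0.147 and 0.224), whereas the mesothelial marker Msln differed by -0.89 ± 0.28. The part of these cells in the Podxl difference was not tested.

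Of 12 neuronal markers, which bear on Synpo, 3 rose and 1 fell, with a median of 0.49. That is 33.3% called in limma, and 7 (58.3%) were at an unadjusted p under 0.05, against 1.39% and 9.73% of all genes. Nefm (1.44 ± 0.17), Map2 (1.90 ± 0.32) and Stmn2 (2.64 ± 0.47) rose and Elavl4 fell by 1.54 (SE 0.29), with limma adjusted p of 0.00996, 0.0317, 0.0390 and 0.0493. With single arrays left out, Nefm always passed, Map2 and Elavl4 only without heterozygote 1, and Stmn2 only without heterozygote 2 or 3. After renewed quantile normalization Stmn2 and Elavl4 did not pass (limma, adjusted p = 0.0501 and 0.0606), nor did Elavl4 with a robust prior (0.0542). The mean level of the list was 7.01 to 7.46 in null and 6.56 to 6.79 in heterozygote. The part of neuronal RNA in the Synpo difference was not tested.

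Stromal and perivascular markers, a list added after values had been seen, were higher on average in null. Of the 15, 7 rose, 0 fell and 8 did not pass, with a median of 1.55, and all 15 differences were positive. That is 46.7% called in limma, and 12 (80%) were at an unadjusted p under 0.05, against 1.39% and 9.73% of all genes. Because the list was put together with values in view, nothing is read from these shares. The 8 that did not pass included Acta2 (0.91 ± 0.54), Cspg4 (0.30 ± 0.24) and Meis1 (0.26 ± 0.17). The mean level of the list was 9.31, 9.12 and 9.46 in null 1, 2 and 3, against 8.32, 7.47 and 7.92 in heterozygote 1, 2 and 3 (log2). Heterozygote 1 was the highest heterozygote array here, as for Synpo and the brighter Podxl probe set. The same held for every other list except the podocyte transcription factors and the neuronal markers, so this order is not particular to stroma. Pdgfrb, a receptor of pericytes and stroma, rose by 1.90 ± 0.18 (SE; limma, adjusted p = 0.00443), and Tbx18 and Postn rose as well. These 3 kept their calls whichever array was left out, while Dcn, Lum, Col1a2 and Rgs5 each lost the call in 1 to 5 of those fits. Rgs5 also lost it with a robust prior and with median centring (limma, adjusted p = 0.0526 and 0.0657). The part of stromal cells in the Podxl and Synpo differences was not tested.

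**Figure D3:**
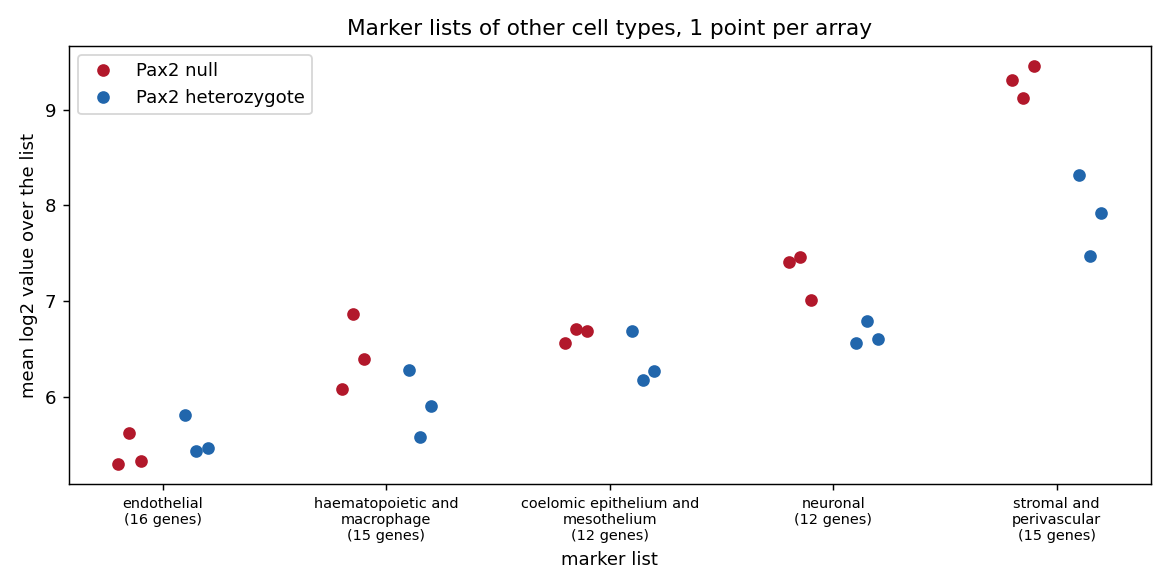
Mean log2 value (vertical axis) of 5 marker lists (horizontal axis) in each Pax2 null array (red, left) and each Pax2 heterozygote array (blue, right). The stromal and neuronal lists have all null points above all heterozygote points, and the endothelial points lie between 5.29 and 5.81 and overlap. The stromal list was added after values had been seen.

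The genes whose arrays ran most like the brighter Podxl probe set were found by the root mean square difference between profiles centred on their own means, over all 6 arrays. The closest of the other genes tested was Ramp3, which encodes a receptor activity-modifying protein, at 0.035 log2 units. Pcdh11x, a protocadherin gene, followed at 0.085, the urate transporter gene Slc2a9 at 0.118, Cd248, which encodes endosialin of pericytes and stromal cells, at 0.121, and the zinc finger gene Tshz3 at 0.131. Cd248 read 9.53, 9.66 and 10.09 in null 1, 2 and 3, against 8.23, 7.68 and 7.64 in heterozygote 1, 2 and 3 (log2). These genes were selected on their likeness to Podxl, so their differences of 1.59 to 1.91 follow from the choice. The genes most like Nphs1 were Npffr2 (0.061), Sctr (0.075) and St6galnac1 (0.077), with differences of -0.08 to 0.03.

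**Figure D4:**
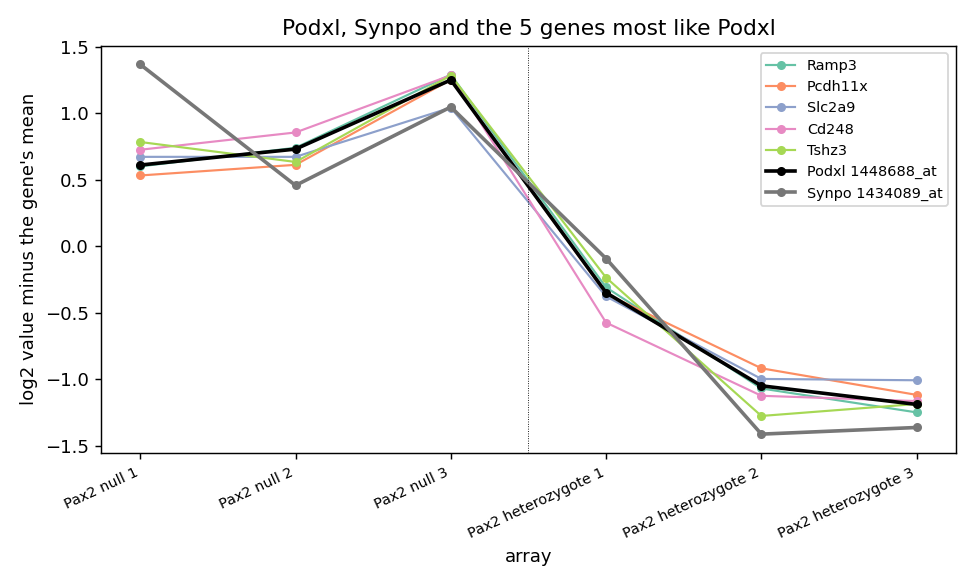
Log2 value minus the mean of each gene (vertical axis) over the 6 arrays (horizontal axis, Pax2 null left of the dotted line and Pax2 heterozygote right of it) for Podxl (black), Synpo (grey) and the 5 genes closest to Podxl. All 7 lines are above 0 in the null arrays and below 0 in the heterozygote arrays, and the Synpo line departs from the Podxl line most in null 1.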

How the data were processed

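RNA from 6 samples of EGFP-positive cells was measured on 1-colour Affymetrix arrays. The authors' deposited table holds log2 values for each probe set on each array. The submitters' processing notes list RMA, affy and limma, and their versions and settings were not given in what was used here. RMA makes the distributions of arrays alike, which hides differences in total RNA per cell, and compresses differences between dim probe sets. The amplification started with 10 ng total RNA per array, per the labels' protocols.

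From these values, a linear model (limma 3.58.1, R 4.3.3; lmFit, then eBayes; two-sided; no covariates) was fitted over 18194 genes, each represented by the probe set of highest mean, with Benjamini-Hochberg adjustment and a threshold of 0.05. Dim probe sets were kept, and 34958 of 45101 probe sets had exactly 1 symbol. Member probe sets were fitted among all of these. Differences are null minus heterozygote, and the arrays' number limits the precision. Within a genotype, arrays correlated at 0.976 to 0.991, and no pair of arrays was identical.

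The members, lists and tests were chosen with earlier results of these data known. The named genes were the members, the called genes of each list (or the 3 with the smallest p), a few preset regulators and partners, and the genes most like Podxl and Nphs1. Enpep, Thsd7a, Msln, Synpo2, Hbb-bh1, Csf1r, Erg, Eng, the duct genes that did not pass and the stromal genes were named after their values were seen. No gene lists were tested as sets. The array pairs come from 18 hybridization control probe sets: the best of 15 pairings had a summed distance of 1.97 and the next 5.06. Across genes, the arrays of a pair deviated together (correlation 0.377 to 0.628, against at most 0.0972 otherwise). Deviations were taken from the mean of each genotype, so a positive correlation within a pair lowers those outside it. The low values outside the pairs are therefore no separate support for the pairing. Alternatives were 2 other priors, a filter, 2 normalizations, array weights, the mean over probe sets, probe sets as units, 1 array left out and the array-pair block.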

Additional observations from a re-analysis of the deposited data

How the results depend on the processing

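The number of called genes depended on the setting. It was 253 (147 higher and 106 lower in null), 551 with array weights (340 and 211), 824 with the array pair as a block (482 and 342), and 84 to 318 with 1 array left out (41 to 208 and 36 to 110). Of the podocyte list genes, 4 rose with array weights or the block and 1 to 2 with 1 array left out. With the mean over probe sets 1 fell, and 0 to 2 with 1 array left out. The other priors, the filter and the array-pair block cannot change the difference of a gene, so only the remaining alternatives could move it. Over the 14 alternatives that give a value per gene, the differences ranged from 1.53 to 1.98 for Podxl and 1.06 to 2.34 for Synpo. Over 13 they ranged from -0.24 to 0.18 for Nphs1 and -0.06 to 0.16 for Ptpro. That of Cd2ap ranged from -0.65 to 0.02 over 14, the positive value being that without null 3. The cause was not tested. The labels number no replicates, so no block by replicate number was fitted.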

Other observations

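Of the 68 measured podocyte list genes, 7 had all null arrays above all heterozygote arrays and 9 had all below. Among all genes, 6.49% and 7.16% did. Enpep and Thsd7a were 2 of these list genes, named after their values were seen, and neither passed in the main fit. Nothing is read from their separation. Enpep, the aminopeptidase A gene of podocytes and proximal tubules, read 4.01, 4.02 and 4.88 in null 1, 2 and 3, against 6.35, 5.15 and 5.28 in heterozygote 1, 2 and 3 (log2), a difference of -1.29 ± 0.37 (SE; limma, adjusted p = 0.199, and 0.00860 with the array pair as a block). Thsd7a, a podocyte membrane protein gene, read 6.68, 6.87 and 6.95 in null 1, 2 and 3, against 5.84, 5.41 and 6.17 in heterozygote 1, 2 and 3 (log2), a difference of 1.02 ± 0.21 (SE; limma, adjusted p = 0.0784, and 0.0230 with the block). The 2 genes lay in opposite directions.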
